A study of Mus musculus with 4 samples.

Results

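The genes described here encode 9 transcription factors of the B-lymphocyte lineage, measured in donor-derived stem and progenitor cells of mouse bone marrow. They are Tcf3, Foxo1, Ikzf1, Ebf1, Pax5, Lef1, Pou2af1, Bach2 and Ikzf3, taken by symbol as a list of 9 out of the 32285 genes in each matrix. The series holds 4 single-cell RNA libraries of cells sorted as CD45.2+, lineage-negative, Sca1+ and Kit+, a surface phenotype called LSK that covers blood stem cells and early multipotent progenitors. Cells were taken 10 weeks after transplantation and captured with a 10x Genomics droplet kit that reads the 3′ end of each transcript, together with barcoded antibodies. There was 1 library each of control, Mll3 deleted, Mll4 deleted and Mll3/4 deleted cells. MLL3 and MLL4 are the histone methyltransferases encoded by Kmt2c and Kmt2d, which mark enhancers. All 4 groups share the transplant setting; the labels used here give no strain, no promoter or cell type that drove the deletion, no recipient treatment and no number of mice per library.

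B cells arise from lymphoid-primed progenitors in steps that are set by a small network of transcription factors. The E protein TCF3 (E2A), the Ikaros protein IKZF1 and FOXO1 act early and help to switch on EBF1, which specifies the lineage. EBF1 then activates PAX5, which commits cells to it, and both drive genes of the pre-B-cell receptor such as Cd79a and Vpreb1. LEF1, POU2AF1 (OCA-B), BACH2 and IKZF3 (Aiolos) work at later or overlapping steps.

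Kept barcodes had 1000 or more genes and no more than 10% mitochondrial UMIs (a UMI, or unique molecular identifier, marks 1 captured transcript molecule). This left 7274 control, 6101 Mll3, 4793 Mll4 and 4748 Mll3/4 cells, with 50792614 to 120700343 gene UMIs per library and median depths of 14454, 15381, 21400 and 8920 UMIs per cell in that order. Levels are UMIs per 1000000 gene UMIs (CPM) summed over the cells of a library or cell group. Intervals are at the 95% level, exact Poisson for levels, exact Clopper-Pearson for shares of cells and exact binomial for ratios, and they cover counting error only. With 1 library per genotype there is no replicate check, cells of a library are not replicates, and no test was run. A difference was counted where it was at least 2-fold and the interval of the ratio excluded 1. Pairs of libraries shared 7 to 14 kept barcodes (0.146% to 0.250% of the smaller library), and leaving shared barcodes out changed no count of the 9 genes between libraries.

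The targeted genes were measured first. Kmt2c was at 68.9 CPM in the control library, 35.3 in the library labelled Mll3 deleted, 61.3 in that labelled Mll4 deleted and 42.3 in that labelled Mll3/4 deleted. Kmt2d was at 24.6, 21.6, 22.6 and 25.4 CPM in the same order, so neither library labelled as lacking Mll4 had clearly less of it. Reads from the 3′ end check a deletion only where it removes that end or destabilises the transcript. The libraries are therefore named Mll3-labelled, Mll4-labelled or Mll3/4-labelled, after what was written on them. The Mll3/4-labelled library also stood apart from the other 3: 99.5% of its cells passed a gate on B-lineage transcripts that held 0.715% to 3.72% of cells elsewhere. Whether its cells are what the label says was not tested, and each of its ratios compares 2 libraries. Of the genes that define the sort, Kit stood 0.01, 0.75 and 0.19 above control on the log2 scale in the 3 libraries and Ly6a (Sca1) 0.50, 0.35 and 1.45. Cd34, another stem and progenitor marker, was at 332 CPM in control and 5.18 CPM in the Mll3/4-labelled library. Cells with markers of mast cells, macrophages or monocytes, innate lymphoid or T cells, plasmacytoid dendritic cells or mature B cells made up 46.2% of the Mll4-labelled library and at most 1.67% of the others, so the results below are also given without them where that changes a call.

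For the genes, RefSeq windows of up to 250 bases upstream of transcript starts (GRCm38.p6) matched 8 of the 9 symbols, in 13 windows; Ikzf3 had none. Windows of 5 genes that were high together in the Mll3/4-labelled library are shown 5′ to 3′ on the gene's strand, with matches to the EBF1 core (CCCNNGGG) and the Ikaros core (GGGAA, or TTCCC on the other strand) in capitals. The Ebf1 window lies on the plus strand at chr11:44619978-44620227, inside the gene's span and outside annotated exons. That of Pax5 lies upstream of the annotated gene on the minus strand at chr4:44710695-44710944. Foxo1 is on the plus strand, and its window at chr3:52268087-52268335 ends just before the first annotated exon. The Ikzf1 window (plus strand, chr11:11685675-11685924) precedes an annotated internal start. For Pou2af1 the window is at chr9:51213440-51213689 on the plus strand.
Ebf1: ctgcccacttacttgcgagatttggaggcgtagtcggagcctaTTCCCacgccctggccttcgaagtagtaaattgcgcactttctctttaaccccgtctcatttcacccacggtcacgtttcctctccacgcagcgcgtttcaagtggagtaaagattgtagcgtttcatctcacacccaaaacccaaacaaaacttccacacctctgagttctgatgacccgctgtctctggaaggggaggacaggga
Pax5: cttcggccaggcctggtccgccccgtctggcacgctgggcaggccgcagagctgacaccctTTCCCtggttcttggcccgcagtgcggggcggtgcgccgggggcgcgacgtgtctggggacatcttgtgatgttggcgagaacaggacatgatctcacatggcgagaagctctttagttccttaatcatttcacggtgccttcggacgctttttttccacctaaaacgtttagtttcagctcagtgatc
Foxo1: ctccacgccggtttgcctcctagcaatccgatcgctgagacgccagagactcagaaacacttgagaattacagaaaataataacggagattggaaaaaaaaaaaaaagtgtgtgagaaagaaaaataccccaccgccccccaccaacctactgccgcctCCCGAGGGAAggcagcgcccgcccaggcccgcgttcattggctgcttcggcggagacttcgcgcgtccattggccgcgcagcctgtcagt
Ikzf1: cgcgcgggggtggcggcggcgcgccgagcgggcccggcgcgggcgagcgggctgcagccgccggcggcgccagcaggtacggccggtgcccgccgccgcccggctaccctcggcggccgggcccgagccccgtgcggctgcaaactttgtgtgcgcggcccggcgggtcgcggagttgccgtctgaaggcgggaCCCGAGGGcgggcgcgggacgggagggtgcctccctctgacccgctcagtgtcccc
Pou2af1: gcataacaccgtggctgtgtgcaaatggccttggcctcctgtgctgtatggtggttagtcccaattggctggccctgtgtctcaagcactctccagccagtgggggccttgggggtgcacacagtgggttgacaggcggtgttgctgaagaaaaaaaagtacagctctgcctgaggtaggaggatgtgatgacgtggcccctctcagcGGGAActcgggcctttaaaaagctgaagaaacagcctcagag

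An EBF1 core stood in the Foxo1 window at bases -91 to -84 from the start and in the first of 2 Ikzf1 windows at bases -56 to -49. In Foxo1 it overlapped an Ikaros core at bases -86 to -82. The EBF1 core was found in 11.8% of all 32841 windows in the table, and the Ikaros core in 56.2%. Ikaros cores also stood in the windows of Ebf1, Pax5 and Pou2af1 shown above (1 each) and in that of Bach2 (3). Among windows not shown, the other Ebf1 window and the second Ikzf1 window held 2 Ikaros cores each. The 4 Lef1 windows and the Tcf3 window held neither core. The E box (CANNTG), bound by E proteins such as TCF3, was present in 66.2% of all windows and in at least 1 window of Ebf1, Pax5, Pou2af1, Tcf3, Foxo1 and Lef1. No window of these genes held the FOXO core GTAAACA (3.17% of all windows), the LEF1/TCF core CTTTGNT (16.0%) or the octamer ATTTGCAT (1.60%). All motifs were searched on both strands, and a match is a string of letters, not a bound site.

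Across whole libraries, 7 of the 9 genes were at least 2-fold higher in the Mll3/4-labelled library than in control: Ebf1, Pax5, Lef1, Pou2af1, Foxo1, Bach2 and Ikzf1. Over the 10123 genes whose mean was 5 CPM or more, 7.96% were that much higher in the same comparison, and the median log2 ratio was -0.12 against 6.17 for the 9 genes. In the Mll3-labelled library 4 of 9 were higher (Ebf1, Pax5, Lef1 and Pou2af1), where 1.76% of all genes were. In the Mll4-labelled library 3 of 9 were higher (Pou2af1, Lef1 and Ikzf3), where 6.36% were. Only Ikzf3 was counted as lower, in the Mll3/4-labelled library, where 13.7% of all genes were lower. None of the 9 was counted as lower in the Mll3-labelled (0.919% of all genes) or Mll4-labelled library (4.70%). Of the 9 genes, 8 passed the 5 CPM minimum, and Pax5 and Lef1 passed it only through the Mll3/4-labelled library (2.61 and 4.48 CPM on average in the other 3 libraries). The 3 comparisons share the control library. In sums over a library, fewer cells of a type and less RNA per cell cannot be told apart.

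**Figure D1:**
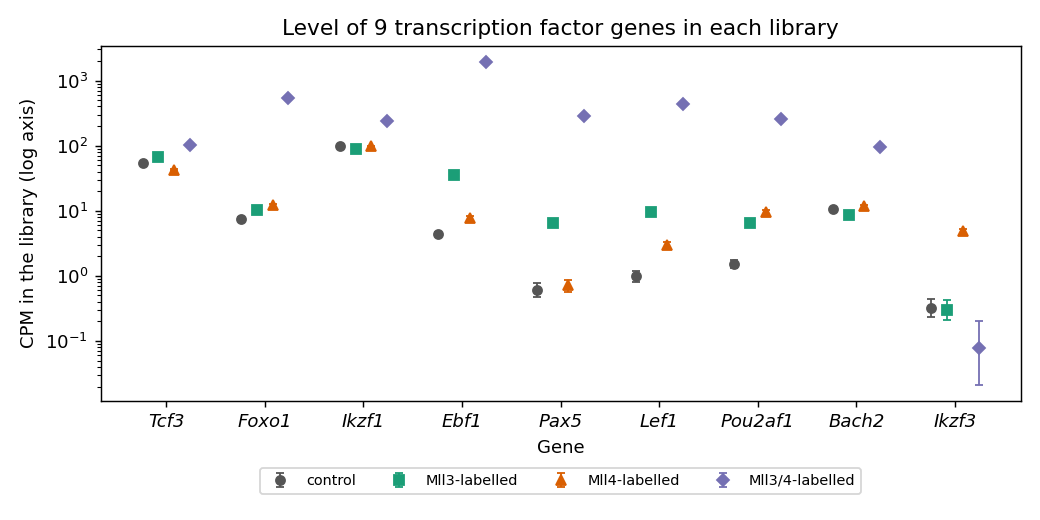
Level of each gene in each library, in CPM (log axis) over all kept cells, 1 point per library with its 95% Poisson interval. For Ebf1, Pax5, Lef1, Pou2af1, Foxo1 and Bach2 the Mll3/4-labelled library stands far above the other 3; for Tcf3 and Ikzf1 it is highest by a smaller margin (1.90-fold and 2.38-fold the control); for Ikzf3 the Mll4-labelled library is highest.

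The early factors differed least between libraries, with the exception of Foxo1. Tcf3, the E protein that starts the programme, was at 53.9 CPM in control, 66.9 with the Mll3 label, 42.0 with the Mll4 label and 102 with the Mll3/4 label. The last of these was 1.90-fold the control value (1.83 to 1.97), under the 2-fold line; with TMM or median-of-ratios scaling it passed that line and was counted (log2 ratio 1.03 with the latter). Ikzf1, which encodes Ikaros and is needed for lymphoid priming, was at 99.2, 87.5, 97.2 and 236 CPM in the same order. Its 3 lower libraries lay close together, and the Mll3/4-labelled level was 2.38-fold the control (2.32 to 2.44). Foxo1, a forkhead factor that acts with EBF1 on early B-cell genes, was at 7.52 CPM in control, 10.4 with the Mll3 label, 12.1 with the Mll4 label and 541 with the Mll3/4 label. That is a 72.0-fold difference from control (67.4 to 77.0), against 0.46 and 0.68 on the log2 scale for the single-label libraries.

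Ebf1, the specification factor, gave 526 UMIs in control (4.41 CPM, 4.04 to 4.80) and 3744 in the Mll3-labelled library (35.4 CPM). It gave 942 UMIs in the Mll4-labelled library (7.80 CPM) and 97051 in the Mll3/4-labelled library (1911 CPM, 1899 to 1923). The ratios to control were 8.02-fold, 1.77-fold and 433-fold (398 to 473), and none of the 4 intervals of the levels overlapped another. Pax5, the commitment factor, was at 0.612 CPM in control, 6.52 with the Mll3 label, 0.712 with the Mll4 label and 285 with the Mll3/4 label. It stood 10.6-fold above control in the Mll3-labelled library and 466-fold (370 to 595) in the Mll3/4-labelled library. In the Mll4-labelled library it was at 1.16-fold, a difference within the counting error of 86 and 73 UMIs.

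Among the later factors, Lef1, the nuclear partner of Wnt signalling that is expressed in pro-B cells, followed the same order as Ebf1. Its levels were 0.989 CPM in control, 9.46 with the Mll3 label, 2.97 with the Mll4 label and 436 with the Mll3/4 label. Pou2af1, a coactivator of octamer-binding proteins, was at 1.52, 6.52, 9.59 and 259 CPM, so that here the Mll4-labelled library stood above the Mll3-labelled one. Bach2, a repressor that restrains myeloid and plasma-cell genes, was at 10.6, 8.57, 11.7 and 95.7 CPM. Its Mll3/4-labelled level was 9.06-fold the control, with the other 3 libraries close together. Ikzf3, which is switched on at later B-cell stages, had 39 UMIs in control (0.327 CPM), 32 with the Mll3 label (0.302), 586 with the Mll4 label (4.86) and 4 with the Mll3/4 label (0.0788). It was the 1 gene of the list that was lowest in the Mll3/4-labelled library, 4.15-fold below control. That call rests on few UMIs and on cells of other types: without cells marked as mast, macrophage or monocyte, innate lymphoid or T, plasmacytoid dendritic and mature B cells in every library, its log2 ratio turned to 1.22 and it was not counted.

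The genotypes form a layout in which the Mll3/4-labelled log2 ratio can be set against the sum of the ratios of both single-label libraries. The Mll3/4-labelled library lay above that sum by at least 1 for Pax5 (5.23), Foxo1 (5.02), Ebf1 (4.93), Lef1 (3.94), Bach2 (3.33), Pou2af1 (2.65) and Ikzf1 (1.46). Tcf3 lay 0.97 above it and Ikzf3 was below it (-5.67, interval -7.16 to -4.17). Over all 10123 genes, 8.35% lay at least 1 above the sum and 15.9% at least 1 below. Each of these values uses the same control library.

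The share of cells with a UMI gave the same picture at one depth per cell. For this, each cell was thinned to 3000 UMIs, which left out 14, 17, 134 and 33 shallower cells. After thinning, Ebf1 was detected in 97.6% of Mll3/4-labelled cells and in 0.303%, 3.25% and 0.794% of control, Mll3-labelled and Mll4-labelled cells. The unthinned shares were 99.4%, 0.564%, 4.44% and 2.34%. Foxo1 was detected after thinning in 79.2% of Mll3/4-labelled cells against 2.52%, 2.89% and 4.96% in the other libraries (unthinned 97.4% against 10.8%, 13.6% and 22.2%). Lef1 was detected in 70.0% of Mll3/4-labelled cells, Pou2af1 in 53.3% and Pax5 in 52.6%, against 0.179%, 0.275% and 0.110% in control (unthinned 93.6%, 85.8% and 82.9% against 0.440%, 0.687% and 0.275%).

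Tcf3 and Ikzf1 were found in many cells of every library. Ikzf1 was detected after thinning in 25.8%, 22.7%, 28.8% and 49.2% of control, Mll3-labelled, Mll4-labelled or Mll3/4-labelled cells, in that order (unthinned 71.9%, 67.6%, 77.5% and 82.7%). For Tcf3 the thinned shares were 14.3%, 17.4%, 10.9% and 26.1% (unthinned 53.5%, 60.6%, 50.7% and 59.6%). Bach2 was detected after thinning in 3.26% of control cells and 24.2% of Mll3/4-labelled cells (unthinned 14.2% and 53.8%). In all, 8 of the 9 genes had a higher thinned share in the Mll3/4-labelled library than in control without overlap of the intervals; 25.6% of all genes did. Ikzf3 was the exception, at 0.124% of control cells, 2.60% with the Mll4 label and 0.0424% with the Mll3/4 label (unthinned 0.371%, 5.90% and 0.0842%).

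As a measure of free RNA, cells with at least 20 UMIs of the granule genes Elane, Prtn3 and Ctsg, which should lack these factors, were examined. They numbered 561 in control, 698 in the Mll3-labelled and 1501 in the Mll4-labelled library, with median depths of 25910, 23819 and 40765 UMIs. Unthinned, Ebf1 was detected in 0.178%, 0.287% and 0.733% of them and Pax5 in 0.178%, 0% and 0.133%. The Ebf1 shares of the whole Mll3-labelled library stood well above that level. The Ebf1 shares of the control (0.564%) and Mll4-labelled (2.34%) libraries and their Pax5 shares (0.275% and 0.480%) were nearer to it. The control measure of Ebf1 rests on 1 UMI in 1 granule cell. A share of cells does not show how UMIs are spread: 22 control cells described below held 478 Ebf1 UMIs, a mean of 21.7 each. Only 5 granule cells were present in the Mll3/4-labelled library, too few for the same measure.

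**Figure D2:**
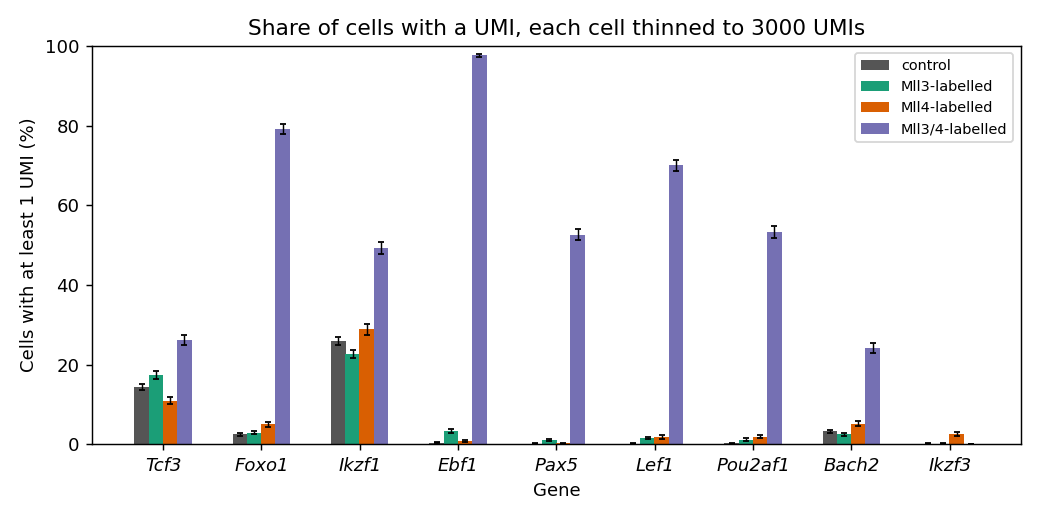
Share of cells with at least 1 UMI of each gene (%), each cell thinned to 3000 UMIs, 1 bar per library with its 95% Clopper-Pearson interval. Ebf1 was found in 97.6% of Mll3/4-labelled cells and in at most 3.25% of cells of the other libraries, whereas Tcf3 and Ikzf1 were found in more than 10% of cells in every library.

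Cells were then taken through a B gate of at least 3 UMIs of Cd79a and Vpreb1 together. Both genes are known targets of EBF1 and PAX5, so levels of those factors inside the gate are a description. The gate held 52 control cells (0.715%), 227 Mll3-labelled cells (3.72%), 136 Mll4-labelled cells (2.84%) and 4722 Mll3/4-labelled cells (99.5%). Applied after thinning it held 0.317%, 2.86%, 0.429% and 99.3%, so the Mll4-labelled share moved most at equal depth. Against the other cells of the same library, 6 of the 9 genes were at least 2-fold higher in the control gate, 8 in the Mll3-labelled gate and 6 in the Mll4-labelled gate. The same held for 2.02%, 3.44% and 1.96% of all genes. Compared gate with gate, the Mll3/4-labelled library was at least 2-fold higher in 6 of the 9 genes against control (background 27.1%, and 5.84% lower), in 7 against the Mll3-labelled library (14.7% and 8.61%) and in 7 against the Mll4-labelled library (36.0% and 7.78%). Ikzf3 was lower in each of these. Only 26 Mll3/4-labelled cells fell outside the gate, too few for a count; Ebf1 was at 91.9 CPM in them.

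Within the gate the contrast was steepest for the genes that are switched on with the lineage. Ebf1 was at 405 CPM inside and 0.381 outside the gate in control, at 615 and 1.69 in the Mll3-labelled library and at 178 and 1.74 in the Mll4-labelled library. Foxo1 was already present outside the gate, at 7.20, 7.70 and 11.4 CPM, and stood at 39.5, 56.2 and 29.9 CPM inside. Ikzf1 did not differ 2-fold between inside and outside in any of these 3 libraries (log2 ratios -0.20, 0.40 and -0.35), and Tcf3 did so in the Mll3-labelled library alone (0.58, 1.36 and -0.35).

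These gates held unlike cells in different libraries. In a split made after the levels were seen, cells with at least 50 UMIs of Igkc and Jchain, genes of immunoglobulin-secreting cells, made up 57.7% of the control gate, 13.7% of the Mll3-labelled, 85.3% of the Mll4-labelled and 0.0847% of the Mll3/4-labelled gate. In these 30, 31 and 116 cells of the control, Mll3-labelled and Mll4-labelled libraries Pou2af1 was at 152, 150 and 279 CPM and Ikzf3 at 35.9, 17.4 and 28.5 CPM. Ebf1 was low in them, at 4.31, 26.7 and 25.3 CPM, and Pax5 gave 0, 6 and 5 UMIs. Of the 1158 Pou2af1 UMIs of the Mll4-labelled library, 938 came from these cells, and without cells of the marker-defined types named above the Pou2af1 log2 ratio of that library fell from 2.66 to 0.68. Free immunoglobulin RNA was not measured separately.

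The other gate cells were mostly positive for Dntt, the terminal transferase of early lymphoid cells (at least 2 UMIs). There were 22 such cells in control, 193 with the Mll3 label, 15 with the Mll4 label and 4555 with the Mll3/4 label, with median depths of 19657, 23385, 42050 and 8914 UMIs. The mean total was 22401, 25516, 45781 and 10620 gene UMIs per cell in that order. A share of the total (CPM) and a count per cell therefore give different ratios, and both are given for genes of the list. Ebf1 was at 970 CPM in control, 717 with the Mll3 label, 832 with the Mll4 label and 1950 with the Mll3/4 label. Where the whole libraries differed 433-fold, Dntt-positive gate cells differed 2.01-fold in CPM (1.84 to 2.20). Per cell the counts were alike: a mean of 21.7 Ebf1 UMIs was counted in a control cell and 20.7 in an Mll3/4-labelled cell, 0.953 times the control. Captured RNA per cell, total RNA per cell and sequencing depth cannot be told apart here. These cells held 478 of the 526 control UMIs of Ebf1 and 94318 of the 97051 Mll3/4-labelled UMIs.

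**Figure D3:**
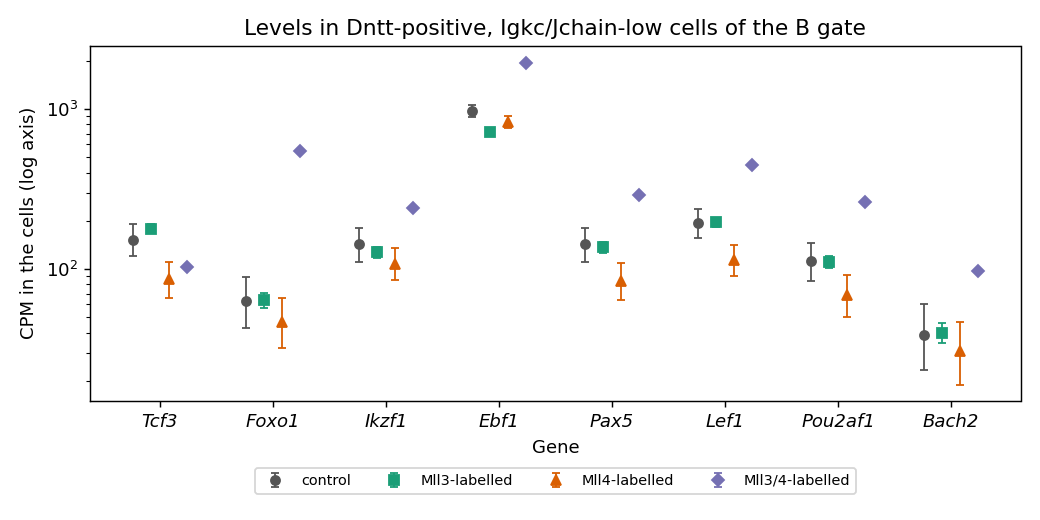
Level of 8 genes (CPM, log axis) in B-gate cells with at least 2 Dntt UMIs and under 50 Igkc and Jchain UMIs, 1 point per library with its 95% Poisson interval, over 22, 193, 15 and 4555 cells. Control and Mll3-labelled levels lie close together, and as a share of UMIs the Mll3/4-labelled library is highest for every gene but Tcf3.

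Foxo1 had the largest ratio of the 9 genes in these cells. It was at 62.9 CPM in control, 63.6 with the Mll3 label, 46.6 with the Mll4 label and 549 with the Mll3/4 label, 8.72-fold the control value (6.14 to 12.8). Pax5 was at 142, 136, 84.5 and 290 CPM, Lef1 at 193, 196, 114 and 446 CPM, and Pou2af1 at 112, 110, 68.4 and 263 CPM. These 3 genes were 2.04-fold, 2.32-fold and 2.36-fold above control in the Mll3/4-labelled library. Bach2 was at 38.6, 39.8, 30.6 and 97.4 CPM, 2.53-fold above control on 19 control UMIs (1.62 to 4.20). Ikzf1, at 142, 127, 108 and 239 CPM, was 1.68-fold higher and not counted. Tcf3 went the other way, at 152, 178, 85.9 and 103 CPM, a log2 ratio of -0.57 in the Mll3/4-labelled library that was not counted as 2-fold. Ikzf3 gave 0, 1, 1 and 3 UMIs in these cells.

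Counted per cell, Foxo1 was the 1 gene of the list at least 2-fold above control in the Mll3/4-labelled library. A control cell held a mean of 1.41 Foxo1 UMIs and an Mll3/4-labelled cell 5.83, which is 4.13 times as many. Pax5 (0.967 times), Lef1 (1.10 times), Pou2af1 (1.12 times), Bach2 (1.20 times) and Ikzf1 (0.797 times) differed less than 2-fold from the control count per cell. Tcf3 was at 1.10 UMIs per cell against 3.41 in control, 0.322 times as many. The 2-fold differences of Ebf1, Pax5, Lef1, Pou2af1 and Bach2 in CPM are differences in the share of the UMIs and were not seen in the count per cell.

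Over these like-gated cells, 6 of the 9 genes were at least 2-fold higher in CPM in the Mll3/4-labelled library than in control, where 11.5% of all genes were higher and 9.02% lower. Set against the 193 Mll3-labelled cells, which give the best-counted comparison, the same 6 genes were higher in CPM. These were Ebf1, Pax5, Lef1, Pou2af1, Foxo1 and Bach2, with a background of 13.0%. Foxo1 was then 3.11 higher on the log2 scale (2.95 to 3.28), Ebf1 1.44, Bach2 1.29, Pou2af1 1.25, Lef1 1.19 and Pax5 1.09. Mean counts per Mll3/4-labelled and Mll3-labelled cell were 5.83 and 1.62 UMIs for Foxo1, 20.7 and 18.3 for Ebf1 and 3.08 and 3.48 for Pax5. Lef1 was at 4.74 and 5, Pou2af1 at 2.80 and 2.82 and Bach2 at 1.03 and 1.02 UMIs per cell. Against the 15 Mll4-labelled cells 7 of 9 were higher in CPM, Ikzf1 included (1.14), with a background of 13.3%. Per cell, Foxo1 alone of these genes was above the Mll4-labelled count (5.83 and 2.13 UMIs). None of the 9 differed 2-fold between Mll3-labelled and control cells (background 2.57% higher and 2.13% lower), where log2 ratios ran from -0.44 for Ebf1 to 0.22 for Tcf3. None did between Mll4-labelled and control cells either (5.11% and 3.70%). The gate rests on targets of EBF1 and PAX5 and holds 22 such control cells, which limits these comparisons. Gate cells were also unlike in division. At least 5 UMIs of Mki67 and Top2a were found in 186 of 227 Mll3-labelled and 1177 of 4722 Mll3/4-labelled B-gate cells, unthinned. The part of dividing cells in these ratios and in the totals per cell was not tested.

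**Figure D4:**
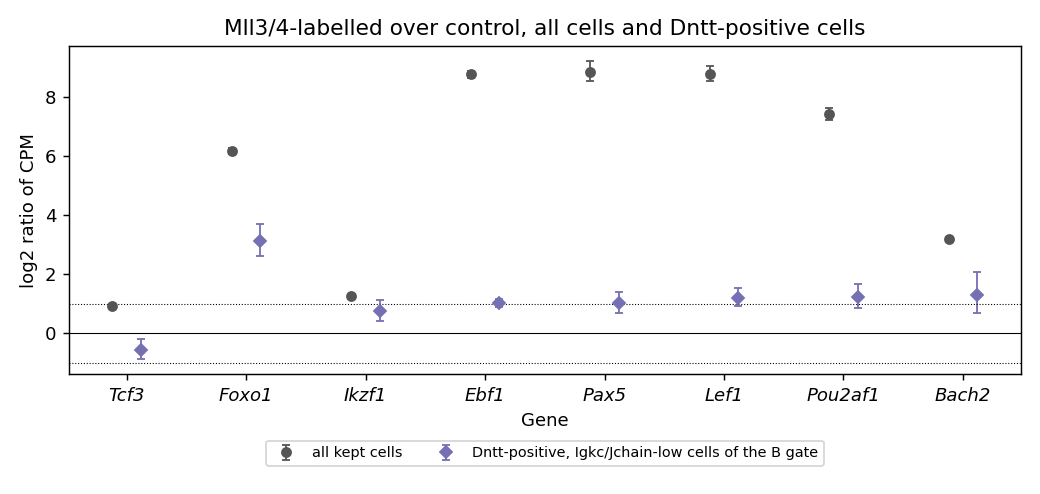
Log2 ratio of Mll3/4-labelled over control for 8 genes, over all kept cells (circles) and over Dntt-positive gate cells (diamonds), with 95% counting intervals; dotted lines mark 2-fold. The ratios of Ebf1, Pax5, Lef1 and Pou2af1 drop from 7.41 or more to between 1.01 and 1.23, while Foxo1 has a ratio of 3.10 and Tcf3 passes below 0.

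Other genes differed in CPM in the same cells. Il7r, the interleukin 7 receptor that pro-B cells depend on, was at 150, 170, 157 and 1044 CPM in Dntt-positive gate cells of the 4 libraries, and Rag1, the recombinase, at 114, 106, 77.2 and 407 CPM. The sort markers differed in CPM too: Kit was at 34.5, 37.6, 118 and 250 CPM and Ly6a at 101, 81.8, 45.1 and 260 CPM. Dntt, on which these cells were chosen, was alike in CPM in control and Mll3/4-labelled cells (log2 ratio -0.04). Counts per cell are not given for Il7r, Rag1, Kit, Ly6a or Dntt, so the unlike totals per cell enter all these ratios. Mll3-labelled and Mll3/4-labelled cells were also set side by side by their Cd79a and Vpreb1 count after thinning to 3000 UMIs. Thinning keeps each gene's share of the UMIs, and both genes are EBF1 and PAX5 targets, so this matches marker level and not RNA content. With 10 to 29 such UMIs, 98 Mll3-labelled and 3511 Mll3/4-labelled cells were found. In that range Foxo1 was at 71.4 and 604 CPM, Ebf1 at 905 and 2141 CPM, Pax5 at 180 and 297 CPM and Tcf3 at 224 and 102 CPM. With 3 to 9 such UMIs (74 and 276 cells), Foxo1 was at 45.0 and 530 CPM and Ebf1 at 671 and 1516 CPM. Other genes came closer between the libraries in 1 range or both. Lef1 was at 330 and 486 CPM with 10 to 29 UMIs and at 185 and 353 CPM with 3 to 9. Pou2af1 was at 129 and 281 CPM with 10 to 29 UMIs and at 167 and 198 CPM with 3 to 9. Bach2 was at 30.6 and 102 CPM with 10 to 29 UMIs. With 3 to 9 it was at 76.6 and 76.1 CPM, on 17 Mll3-labelled UMIs. Pax5 was at 131 and 302 CPM with 3 to 9 UMIs. Of the genes counted as 2-fold higher in unmatched cells, Lef1 thus fell under 2-fold in both ranges. Pax5, Pou2af1 and Bach2 did so in 1 range only, and Foxo1 and Ebf1 in neither.

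Individual gate cells of the Mll3/4-labelled library carried many of the 9 genes at once. At 3000 UMIs per cell a median of 5 of the 9 was detected in an Mll3/4-labelled gate cell, 3 in an Mll3-labelled, 2 in a control and 1 in an Mll4-labelled gate cell. These are whole gates: cells with at least 50 Igkc and Jchain UMIs, low in Ebf1, made up 57.7% of the control and 85.3% of the Mll4-labelled gate. At least 6 were found in 24.4% of Mll3/4-labelled and 2.20% of Mll3-labelled gate cells. An Mll3/4-labelled gate cell held a median of 6 thinned Ebf1 UMIs (10th to 90th percentile 2 to 12, highest 34), and 1.90% held none. An Mll3-labelled gate cell held a median of 2 (0 to 5), and 24.7% held none. For Foxo1, 20.4% of Mll3/4-labelled gate cells and 86.3% of Mll3-labelled gate cells had no UMI.

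Ebf1 was seen without Pax5 more often than the reverse. Unthinned, both were detected in 3932 of the 4748 Mll3/4-labelled cells (82.8%), Ebf1 alone in 16.6% and Pax5 alone in 2 cells. In the Mll3-labelled gate both were detected in 73.6% of cells, Ebf1 alone in 14.5% and Pax5 alone in none. In the control gate the shares were 32.7%, 11.5% and 0%. Cells with at least 50 Igkc and Jchain UMIs made up 57.7% of the control gate and 13.7% of the Mll3-labelled gate. Thinned, the Mll3/4-labelled library gave 51.9% both, 45.7% Ebf1 alone and 0.764% Pax5 alone, and the Mll3-labelled gate 25.6%, 49.8% and 3.08%. Because Pax5 gives fewer UMIs than Ebf1 in these data, a cell with Ebf1 alone need not lack Pax5. Split by thinned Pax5 in the Mll3/4-labelled gate, Ebf1 stood at 2094 CPM with no Pax5 UMI, 2340 with at least 1 and 2682 with at least 3. Foxo1 stood at 600, 620 and 611 CPM in the same cells, so cells with and without a Pax5 UMI were nearly alike in Foxo1.

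Dividing cells were set against other gate cells in both libraries with many of them, a split made after the values were seen. Mll3/4-labelled gate cells with at least 5 UMIs of Mki67 and Top2a (1177 cells, median depth 15582 UMIs) were set against those with none (2322 cells, 6709 UMIs). There no gene of the list differed 2-fold. Foxo1 was lower by 0.63 on the log2 scale in the dividing cells (-0.63), Ebf1 by 0.58 (-0.58) and Lef1 by 0.45 (-0.45), while Pax5 (-0.04), Ikzf1 (-0.09) and Tcf3 (0.12) were close to 0. In the Mll3-labelled gate, by contrast, 7 of the 9 genes were at least 2-fold higher in 186 dividing cells than in 27 others, from 2.05-fold for Ikzf1 to 7.07-fold for Ebf1, 13.4-fold for Pax5 and 58.6-fold for Lef1 (on 2 UMIs in the others), and Ikzf3 was lower. Summed over those 27 cells Igkc was at 429960 CPM, against 3584 CPM in the dividing cells, so division and a different mix of cells cannot be told apart there. The share of all genes that differed 2-fold was not taken for either split, so these counts have no background beside them. Between dividing cells of the Mll3-labelled and Mll3/4-labelled gates, Foxo1 was at 63.8 and 426 CPM and Ebf1 at 709 and 1536 CPM. In the same order Pax5 was at 137 and 281 CPM and Bach2 at 39.6 and 87.3 CPM. Lef1 (199 and 372 CPM) and Pou2af1 (115 and 226 CPM) lay under 2-fold there.

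Antibody counts placed the cells in surface gates of stem cells (HSC: CD150+CD48-CD135-) and multipotent progenitors (CD48+CD135- cells with CD150 were called MPP2 and those without it MPP3, and CD135+ cells without CD150 were called MPP4). In control, Ebf1 climbed towards the MPP4 gate, the one known for lymphoid priming: it gave 0 UMIs in 2033 HSC-gate cells and stood at 2.18 CPM in MPP2, 4.78 in MPP3 and 18.2 in MPP4. The Mll3-labelled library kept that order at higher levels, with 0.24 CPM in HSC, 59.8 in MPP2, 81.1 in MPP3 and 136 in MPP4. The Mll4-labelled library had 0.27 CPM in HSC, 8.06 in MPP3 and 17.2 in MPP4. The share of B-gate cells rose in the same order. It was 0.0492% of control cells in HSC, 0.613% in MPP2, 0.852% in MPP3 and 2.67% in MPP4. With the Mll3 label it was 0%, 9.47%, 9.75% and 12.7%, and with the Mll4 label 0.238%, 2.35%, 2.68% and 7.86%. Whether Ebf1 rose across the surface gates apart from these cells was not tested. In the Mll3/4-labelled library the gates were near alike: Ebf1 was at 1972 CPM in HSC, 1981 in MPP2, 1808 in MPP3 and 1736 in MPP4.

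The HSC-gate difference in Ebf1 was at least 17924-fold, taken against 3 UMIs because the control count was 0. Foxo1 in the HSC gate was at 532 CPM against 10.4 in control, 51.1-fold higher. Against control, 7 of the 9 genes were at least 2-fold higher in the Mll3/4-labelled HSC gate (background 9.24%), 7 in MPP2 (10.7%), 7 in MPP3 (9.17%) and 6 in MPP4 (9.01%), where Ikzf1 was 1.47-fold higher. B-gate cells made up 98.4% of the Mll3/4-labelled HSC gate and 0.0492% of that of control, so cells that passed the stem-cell gate in that library carried B-lineage transcripts. Most of its cells (2797, 58.9%) fell in a CD150+CD135+ gate that held 1.46% of control cells, and Ebf1 was at 1971 CPM there.

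**Figure D5:**
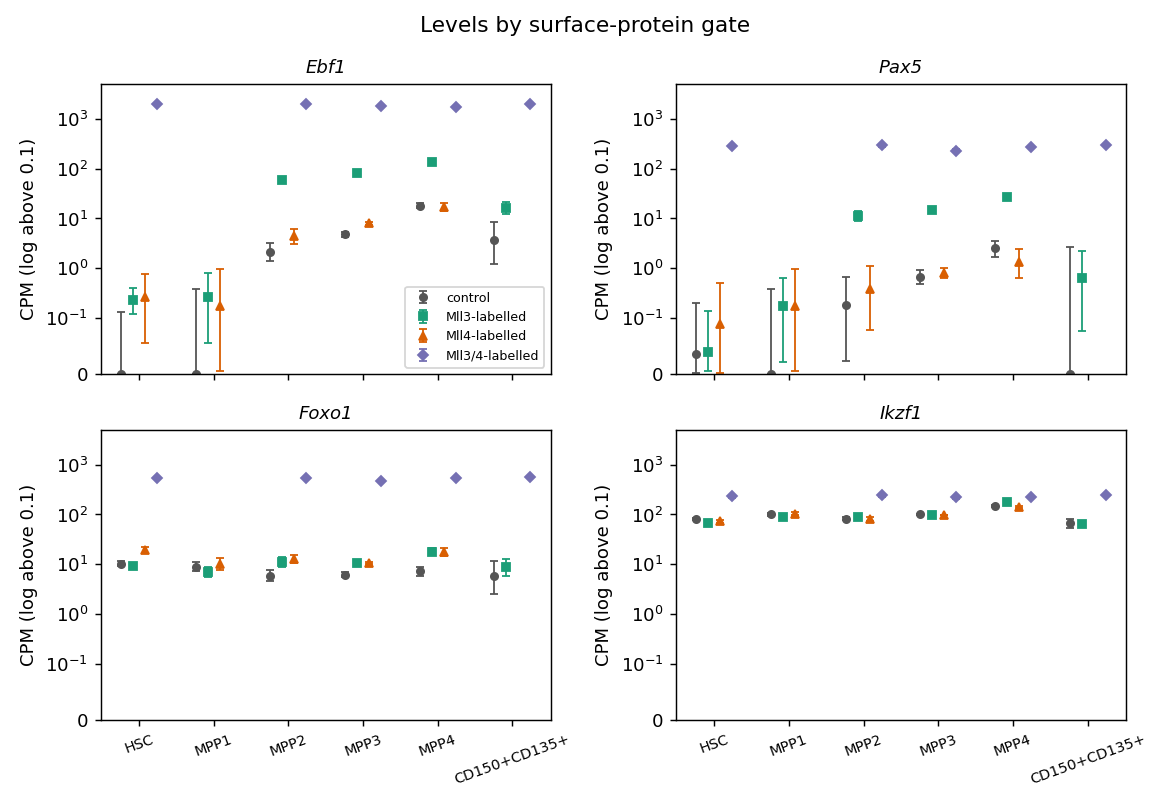
Levels of Ebf1, Pax5, Foxo1 and Ikzf1 (CPM, log axis above 0.1 and linear below) in surface-protein gates of at least 100 cells (MPP1 lacks CD150, CD48 and CD135), 1 point per library with its 95% Poisson interval. Ebf1 climbs from HSC to MPP4 in the control, Mll3-labelled and Mll4-labelled libraries and is flat at 1736 to 1981 CPM in the Mll3/4-labelled library. In the control, Mll3-labelled and Mll4-labelled libraries the share of B-gate cells is also higher in MPP4 than in HSC.

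Outside the B gate, the genes marked other cells. In the Mll4-labelled library 360 cells carried innate lymphoid or T markers (Cxcr6, Gata3, Rora, Il2rb and Cd3e), against 50 in control. They held 406 of the library's 586 Ikzf3 UMIs (73.7 CPM) and 212 of its 359 Lef1 UMIs (38.5 CPM). The same class in control stood at 7.44 CPM of Ikzf3 and 11.9 CPM of Lef1, on 5 and 8 UMIs. So Ikzf3 and Lef1, counted as higher in the Mll4-labelled library, lay mostly in cells of this class. With the marker-defined types named above left out of every library, 2 of the 9 genes were higher with the Mll4 label: Ikzf3 (3.77) and Ebf1, just at 2-fold. Lef1 (0.76) and Pou2af1 (0.68) were no longer counted. The share of all genes that were higher in this reduced set is not given here. Over all kept cells it was 6.36%. Bach2 was highest there in cells with mast-cell genes (38.5 CPM in 656 cells), and cells with stem-cell genes held it at 11.6, 7.50 and 15.4 CPM in the control, Mll3-labelled and Mll4-labelled libraries.

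Dntt-positive cells below the B gate, here called lymphoid primed, also held Ebf1. It was at 0.783 CPM in 890 control, 14.5 CPM in 539 Mll3-labelled and 5.03 CPM in 301 Mll4-labelled cells of this class. Pax5 gave 0, 1 and 0 UMIs in the same cells, beside 14, 152 and 53 Ebf1 UMIs. The class leaves out cells with 3 or more UMIs of Cd79a and Vpreb1, both targets of PAX5. Low Pax5 in it is therefore a description, and in control it rests on few UMIs of either gene. In the Mll3-labelled library these cells held 152 of the 169 Ebf1 UMIs found outside the gate. Leaving out all B-gate cells, Ebf1 stayed higher in that library (log2 ratio 2.14), whereas Lef1 (0.03) and Pou2af1 (0.09) came level with control and Pax5 (1.52, on 8 and 3 UMIs) was not counted. In the Mll4-labelled library 117 of the 203 Ebf1 UMIs outside the gate came from 14 cells with the stromal genes Cxcl12, Col1a1 and Lepr, a class added after the values were seen. In control 24 of the 45 Ebf1 UMIs outside the gate came from 3 such cells and 14 from lymphoid-primed cells, so the control side of the ratio without B-gate cells rests largely on few cells. The Mll3-labelled library had no Ebf1 in cells of this class.

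Other genes of the pathway were taken as lists. Their counts include genes below the 5 CPM minimum, whereas the shares of all genes beside them do not. The minimum was passed by 12 of 18 targets, 9 of 12 repressed genes, 24 of 30 other factors and 9 of 12 inhibitors and rivals. With no minimum, larger shares of all genes were higher, as given in the last section. Of 18 known targets of EBF1 and PAX5, 12 were at least 2-fold higher and 2 lower in the Mll3/4-labelled library, 15 higher in the Mll3-labelled and 7 higher and 2 lower in the Mll4-labelled library. Of all genes, 7.96% were higher and 13.7% lower with the Mll3/4 label, 1.76% higher with the Mll3 label and 6.36% higher and 4.70% lower with the Mll4 label. The median log2 ratios of the list were 5.30, 2.42 and 0.36, against -0.12, 0.10 and -0.11 over all genes. In the Mll3/4-labelled library Rag1 (9.06) and Cd79a (8.85) were among the highest log2 ratios. Blk, a kinase of B-cell receptor signalling (-3.11, on 1 UMI), and Ms4a1, which encodes CD20 of more mature B cells (-2.04, on 4 UMIs), were lower. Vpreb2 has a near-identical copy in Vpreb1, so reads may be split between them.

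Of 12 genes that PAX5 or EBF1 is known to repress, 9 were lower and 1 higher with the Mll3/4 label (13.7% and 7.96% of all genes), with a median log2 ratio of -2.20. Those furthest down were Itgam (-6.36), Cd33 (-5.26) and Cebpa (-5.12), all myeloid genes, apart from Tcf7, a T-lineage factor that gave 0 UMIs. Notch1, the T-lineage receptor, stood at -3.30 and Flt3 at -1.45; Ly6a was higher (1.45), and Gata3 (0.49) and Id2 (-0.30) were not counted. The same list had 1 gene higher in the Mll3-labelled library (1.76% of all genes) and 5 higher in the Mll4-labelled library (6.36%), where Csf1r (5.21) and Ccr2 (4.84) led and 1159 cells carried macrophage or monocyte genes. Outside the B gate, cells with granule, macrophage, mast or erythroid markers numbered 6 in total in the Mll3/4-labelled library, and their part in these ratios was not tested.

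Among 30 other factors of the lymphoid network, 8 were higher and 9 lower in the Mll3/4-labelled library, against 7.96% and 13.7% of all genes, and the median log2 ratio was -0.07. Ets1 (4.56), Spib (3.85) and Irf4 (3.31) were highest, and Tcf4, an E protein like Tcf3, was 2.58 higher. Ikzf2 (-6.19), a relative of Ikzf1, Pou2f2 (-5.53), which encodes the OCT2 partner of POU2AF1, and Spi1 (-4.35), which encodes PU.1, were lower. Of 12 inhibitors and rival factors, 3 were higher and 7 lower in the same library (7.96% and 13.7% of all genes), with a median of -2.15. Id3, an inhibitor of E proteins, was at 1.45 CPM in control and 532 CPM in the Mll3/4-labelled library (8.51), with Id1 (2.53) and the EBF1 antagonist Zfp521 (1.37) also higher. Gata2 (-6.10), Gata1 (-5.38) and Cebpa (-5.12) were lower.

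The genes whose levels were most like those of each factor were listed over 22 library-by-surface-gate units, which share libraries and cell makeup. By Pearson correlation of log2(CPM + 1), Ebf1 was closest to Cd79a (0.99), Lef1 to Akap12 (0.99) and Foxo1 to Rnase10 (0.99). Pou2af1 was closest to Slamf7 (0.98), Bach2 to Crip1 (0.98), Ikzf1 to Zmiz1 (0.98), Tcf3 to Smarca4 (0.97) and Ikzf3 to Lamp1 (0.93). Between the factors, the closest pairs were Pax5 with Lef1 and Ebf1 with Lef1 (0.986 each), Ebf1 with Pax5 (0.974) and Foxo1 with Bach2 (0.973). Ikzf3 correlated with the other 8 at -0.57 to 0.03, so it followed another pattern across these units. Ebf1, Pax5, Foxo1, Lef1, Ikzf1, Pou2af1 and Bach2 overlap other counted gene models. For Pou2af1 (Gm47828) and Bach2 (Bach2it1) a model lies on the same strand, so some UMIs may be assigned to it; the others overlap models on the opposite strand only, and Tcf3 and Ikzf3 overlap none. Whether the counting used strand is not given in the sources used here.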

How the data were processed

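The deposited values are raw UMI counts of genes and antibody tags, with 1 sparse matrix of cell barcodes per library. Per the submitters' processing notes, the authors processed them with Cell Ranger 6.1.1 against mm10; the rule that chose the deposited barcodes is not given in the sources used here. Of the 32285 gene identifiers, 32158 (99.6%) were found in GENCODE vM21 on GRCm38, which gave gene coordinates. Promoter windows are from RefSeq (GRCm38.p6).

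Kept barcodes had 1000 or more genes and no more than 10% mitochondrial UMIs (7274, 6101, 4793 and 4748 of 7682, 6560, 7702 and 5136 for control, Mll3-, Mll4- and Mll3/4-labelled). Gene UMIs were summed and scaled to the total; log2 ratios add 0.5 UMI to both counts, and a count of 0 was set to 3 UMIs where a fold is given. Depth per cell differed, so shares of cells were also taken after thinning to 3000 UMIs. Surface gates used centred natural-log antibody counts with 1 threshold per antibody for all libraries. Doublets were kept; Scrublet (scanpy 1.11.5) at its own threshold called 3, 3, 171 and 1 cells, under 0.5% in 3 libraries, so an alternative left out the highest 423, 298, 184 and 180 scores. edgeR 4.0.16 served only for TMM factors. Calculations used Python 3.11.15, numpy 2.4.6 and scipy 1.17.1, and the ratio, interval and thinning steps were tested on simulated data. The 9 genes and all gene lists were chosen with earlier results of these data known. All 9 genes are named; pathway genes are named where they had the 3 highest or 3 lowest ratios of a list or belong to a short set of known targets and regulators, and the nearest of 3 similar genes is given for 8 of the 9 factors. One gene of these lists is not reported here. Genes named beyond this (Blk, Ms4a1, Vpreb2, Flt3, Tcf7, Gata3, Ly6a and the cell markers) were chosen after their values were seen.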

Additional observations from a re-analysis of the deposited data

Results flagged for a closer look

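Barcodes left out by the cell filter also carried these genes, above the level of the left-out control barcodes. There were 408, 459, 2909 and 388 such barcodes in control and with the Mll3, Mll4 and Mll3/4 labels, in that order, with medians of 1958.5, 2377, 672 and 1365 UMIs. Ebf1 was at 188 CPM in those of the Mll3-labelled library and 6317 CPM in those of the Mll3/4-labelled library, against 44.0 CPM in control. Pax5 was at 17.0 and 369 CPM against 3.66 CPM in control. These barcodes enter no comparison of the report, and the difference was not tested.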

How the results depend on the processing

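Leaving out the B-gate cells reduced the genes counted as higher in the Mll3-labelled library from 4 to 1; it could not be run for the Mll3/4-labelled library, where 26 cells remain. In the Mll4-labelled library 5 genes instead of 3 were higher with equal weight per cell and at a 1.5-fold threshold. Without mast, macrophage, innate lymphoid, plasmacytoid and mature B marker cells (110, 102, 2212 and 25 cells), the genes counted as lower in the Mll3/4-labelled library went from 1 to 0 and the Ikzf3 log2 ratio turned to 1.22; the cause was not tested. For these alternatives the share of all genes counted is not given here, so the counts have no background beside them. The background of genes higher in the Mll3-labelled library was 5.002% with no minimum level and 1.06% at 20 CPM, and of genes lower 2.77% and 0.457%. With no minimum, 13.1% of genes were higher with the Mll4 label and 12.5% with the Mll3/4 label. TMM and median-of-ratios scaling shifted the ratios by -0.10 and -0.10 (Mll3-labelled), 0.04 and 0.05 (Mll4-labelled) and 0.08 and 0.11 (Mll3/4-labelled). These are the 10 values of summary results that moved; the other 104 under an alternative lay within 1.5 times the main one. Results outside the summary set were less stable: under an alternative 119 values moved, 1 reversed and 276 stayed the same. In Dntt-positive gate cells, counting UMIs per cell in place of CPM, chosen after seeing the data, took the Mll3/4-labelled ratio to control of Ebf1 from 2.01 to 0.953 and that of Foxo1 from 8.72 to 4.13. No paired analysis was possible because each group has 1 library, and for the same reason no replicate could be left out. Depth limits Pax5 and Ikzf3 outside the B gate, where they gave few UMIs, and the Dntt-positive gate cells of the control (22) and Mll4-labelled (15) libraries. Uncentred antibody counts gave values for the MPP3 and MPP4 gates only, and 4 alternatives for the B gate left too few cells (under 50) for a value in the control or Mll4-labelled library.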
